A study of Mus musculus with 6 samples.

Results

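The genes described here are 10 mouse genes of mucus and of the goblet cell, followed in whole lung of wild-type mice and of mice with a transgene for Scnn1b, which encodes the beta chain of the airway's sodium channel. They are the mucin genes Muc1, Muc4, Muc5ac, Muc5b, Muc16 and Muc20, and Clca1, Agr2, Spdef and Tff2. Each was found by its symbol in the platform annotation, and each of the 10 was measured by 1 probe set, out of 19935 genes in all. There were 6 arrays of total lung RNA, 3 labelled wild type and 3 labelled Scnn1b-Transgenic (Scnn1b-Tg), all of the C57BL/6 background. The labels name no age, sex, treatment or promoter of the transgene. The line of this name is known for a transgene expressed in airway secretory cells from the promoter of the club cell secretory protein. The study's stated purpose was to look for candidate genes of emphysema.

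Mucus is made of large secreted mucins, Muc5ac and Muc5b in the airway, whose long stretches of serine and threonine carry dense sugar chains and whose ends join into gels. Other mucins (Muc1, Muc4, Muc16, Muc20) stay in the cell membrane and form a layer on the epithelial surface. Goblet cells are secretory cells filled with mucin granules. The transcription factor Spdef directs their differentiation, the protein disulphide isomerase Agr2 is needed in the endoplasmic reticulum to make mucin, and Clca1 and Tff2 are secreted together with mucus. In mouse airways, goblet cells are few at rest and can arise from club cells. Increased sodium uptake dehydrates the airway surface, and Scnn1b-transgenic mice are known for mucus obstruction of the airways.

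The genes of both secreted airway mucins had a higher mean in Scnn1b-Tg lung (1.29-fold for Muc5ac and 1.49-fold for Muc5b), as did those of the membrane mucins Muc4 (1.27-fold) and Muc20 (1.14-fold). Clca1 had the largest ratio, 2.16-fold, and by far the largest spread. Muc1, Muc16, Agr2, Spdef and Tff2 lay between 0.98-fold and 1.07-fold. None of these differences passed the test: limma called 0 of the 10 genes at an adjusted p under 0.05, against 0.00502% of all genes tested, a single gene, which was Scnn1b itself. At an unadjusted p under 0.05 there were 4 of the 10, all higher (Muc4, Muc5ac, Muc5b and Muc20) and 0 lower, beside 3.96% and 2.05% of all genes in those directions. For 3 of the 10 (Muc4, Muc5ac and Muc20) every transgenic array lay above every wild-type array, as for 6.26% of all genes, and for 0 of the 10 every transgenic array lay below, as for 4.41% of all genes.

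As a check of the labels, Scnn1b had an intensity of 108.3 to 172.1 on the wild-type arrays and of 1333 to 1527 on the transgenic arrays (adjusted p = 0.00241, limma). Lung identity was borne out by Sftpc, the surfactant protein C gene of alveolar type 2 cells, at 7241 to 8534. It was also borne out by Scgb1a1, the club cell secretory protein gene, at 3948 to 4579 in wild type and 3379 to 3660 in Scnn1b-Tg. All values are intensities after RMA (background correction, normalization and summary of the probes of a gene) on a linear scale, with array medians of 47.6 to 48.5 and lowest values of 18.3 to 18.6 and precision limited by having 3 arrays a genotype. Whether the samples of a genotype are different mice is not stated in the labels, so the errors and p-values cover the spread among these arrays, which may be technical. A pair of arrays stood apart on the principal components of all genes: wild type replicate 2 on the first (16.3, the others between -8.91 and 5.46) and Scnn1b-Tg replicate 3 on the second (13.3, the others between -8.03 and 2.47). The genes below are therefore given array by array and with single arrays left out. In whole lung, fewer cells of a type and less RNA per cell cannot be told apart.

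**Figure D1:**
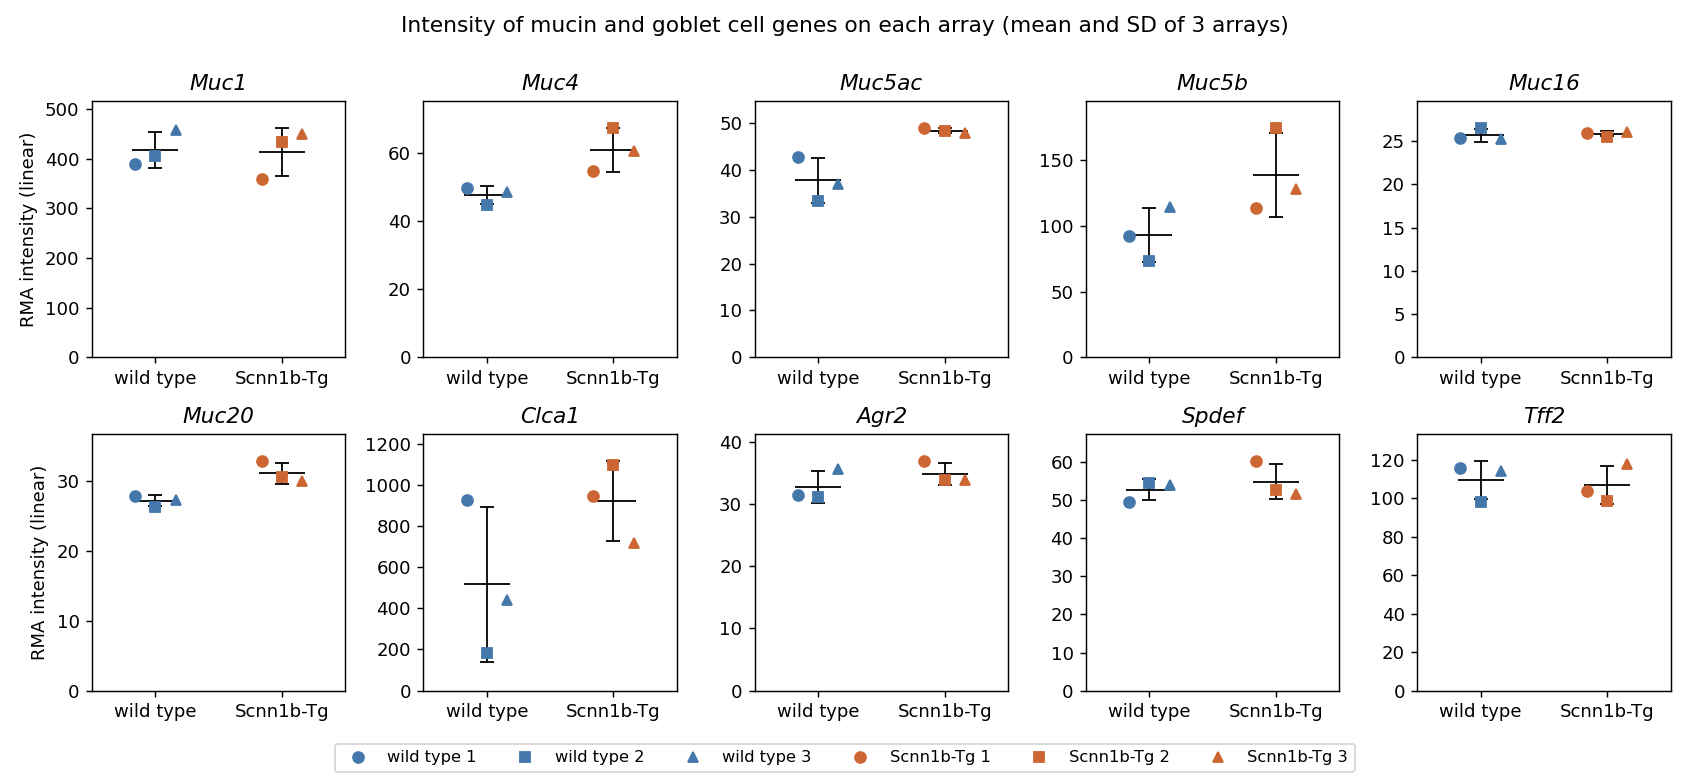
RMA intensity (linear scale, each vertical axis from 0) of the 10 genes on each of the 6 arrays, with wild type in blue and Scnn1b-Tg in orange and the mean and SD of 3 arrays in black. The groups are separate for Muc4, Muc5ac and Muc20, nearly so for Muc5b, and Clca1 runs from 182.2 to 923.7 within wild type alone.

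The promoters of Muc4 and Muc20, neighbours on chromosome 16 whose groups did not overlap, are shown with that of Muc1, a membrane mucin at nearly equal mean intensity in both genotypes, for comparison. Each is the stretch of 250 bases before the gene's start, 5′ to 3′ on the gene's own strand, from RefSeq (build GRCm38.p6). Muc4 is at chr16:32735636-32735885 on the plus strand, Muc20 at chr16:32797436-32797685 on the minus strand and Muc1 at chr3:89228806-89229055 on the plus strand. Capitals mark matches to 6 motifs, searched on both strands. The FOX motif was spelled TGTTTAC. The STAT motif was spelled TTCNNNGAA, with N for any base. The AP-1 motif was spelled TGANTCA. The HIF motif was spelled ACGTG and the TATA box as TATAAA. The GC box was spelled GGGCGG.
Muc4: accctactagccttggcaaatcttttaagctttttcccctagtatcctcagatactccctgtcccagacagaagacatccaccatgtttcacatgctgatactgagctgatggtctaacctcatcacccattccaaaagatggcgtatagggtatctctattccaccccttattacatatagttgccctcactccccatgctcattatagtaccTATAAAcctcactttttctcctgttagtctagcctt
Muc20: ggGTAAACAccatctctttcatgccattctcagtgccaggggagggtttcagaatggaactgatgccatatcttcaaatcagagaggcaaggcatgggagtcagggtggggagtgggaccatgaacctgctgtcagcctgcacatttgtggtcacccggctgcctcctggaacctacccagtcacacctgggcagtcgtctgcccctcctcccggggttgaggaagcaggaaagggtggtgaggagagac
Muc1: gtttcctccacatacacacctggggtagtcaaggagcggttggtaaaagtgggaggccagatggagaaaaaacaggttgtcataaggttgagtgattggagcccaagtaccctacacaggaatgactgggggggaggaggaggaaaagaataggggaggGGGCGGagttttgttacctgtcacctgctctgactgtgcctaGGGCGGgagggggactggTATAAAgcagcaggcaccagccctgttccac

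Muc4 and Muc1 each held a TATA match, starting at base -36 and -31 from the gene's start, and 12.4% of the 32851 promoter windows of the table hold one. Muc1 also held 2 GC box matches (32.7% of all windows hold at least 1), and Muc20 held 1 FOX match near the far end of the window (3.2%). No match to the STAT, AP-1 or HIF letters lay in these 3 windows, beside 7.0%, 6.7% and 16.6% of all windows. The marked motifs overlapped nowhere in the 3 windows. The GC content was 43.6% for Muc4, 57.2% for Muc20 and 54.8% for Muc1, with a median of 52.4% over all windows. A match describes letters in these windows and says nothing of a factor being bound. The table held this stretch for 6 of the 10 genes. Of the other windows, Spdef had 1 HIF match and Agr2 and Muc16 had none of the 6 motifs; Muc5ac, Muc5b, Clca1 and Tff2 are missing from the table.

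Muc5ac, the secreted gel-forming mucin that airways add when goblet cells increase, had intensities of 42.8, 33.4 and 37.1 on wild type replicates 1 to 3 and of 49.0, 48.3 and 47.9 on Scnn1b-Tg replicates 1 to 3. All 3 transgenic arrays were higher than all 3 wild-type arrays, and the transgenic arrays were closely alike (SD 0.54, against 4.78 in wild type). The log2 fold change was 0.37 ± 0.09 (SE), with a 95% interval of the fold change from 1.11 to 1.49 and an adjusted p of 0.455 in limma over all genes. Of all genes, 0.948% had a smaller p-value. Over single arrays left out, the log2 fold change of Muc5ac ran from 0.28 (without wild type replicate 2) to 0.46 (without wild type replicate 1).

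Muc5b, the secreted mucin made by airway secretory cells also in health, had intensities of 92.2, 72.8 and 114.0 on the wild-type arrays and 113.3, 174.4 and 128.0 on the transgenic arrays. The groups overlapped by the single pair of wild type replicate 3 and Scnn1b-Tg replicate 1, which were nearly equal, and Scnn1b-Tg replicate 2 was the highest. The means were 93.0 ± 20.6 (SD, n = 3) and 138.5 ± 31.9 (SD, n = 3), and limma gave a log2 fold change of 0.57 ± 0.20 (SE) at an adjusted p of 0.757. The 95% interval of its fold change, 1.07 to 2.08, was wider than that of Muc5ac. Without Scnn1b-Tg replicate 2 the log2 fold change was 0.40, and without wild type replicate 3 it was 0.73.

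Clca1, a secreted protein of goblet cell granules, had the largest difference in means and the least certain one. Its intensities were 923.7, 182.2 and 440.5 on the wild-type arrays and 947.2, 1098 and 716.2 on the transgenic arrays. Wild type replicate 1 lay within the transgenic range and wild type replicate 2 far below every other array, at 2.11 log2 units under the mean of the other 5 (a deviation of -2.11). The log2 fold change was 1.11 ± 0.53 (SE), the 95% interval of the fold change ran from 0.90 to 5.16, and the adjusted p was 0.862 (limma). Leaving out wild type replicate 2 brought the log2 fold change to 0.51, and leaving out wild type replicate 1 brought it to 1.68. The SD of log2 intensity over the 6 arrays was 0.98 for Clca1, 0.43 for Muc5b and 0.23 for Muc5ac, the 3 most variable of the 10, and at most 0.22 for the others.

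Among the membrane mucins, Muc4, which spans the apical membrane of airway cells and partners the receptor ErbB2, had intensities of 49.6, 44.8 and 48.4 in wild type and 54.5, 67.2 and 60.6 in Scnn1b-Tg. The lowest transgenic array was above the highest wild-type array, and the transgenic arrays were spread more widely (SD 6.36 against 2.51). For Muc4 limma gave a log2 fold change of 0.35 ± 0.08 (SE) at an adjusted p of 0.455, and 0.898% of all genes had a smaller p-value. It ran from 0.27 without Scnn1b-Tg replicate 2 to 0.43 without Scnn1b-Tg replicate 1.

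Muc20, a small membrane mucin, had intensities of 27.9, 26.3 and 27.3 in wild type and 32.8, 30.6 and 29.9 in Scnn1b-Tg. These values are all near the bottom of the scale and the groups did not overlap. The log2 fold change of Muc20 was 0.19 ± 0.05 (SE), at an adjusted p of 0.561 (limma) and a 95% interval of the fold change from 1.05 to 1.25. Muc16 and Agr2 were, like Muc20, among the 6645 dimmest genes by mean intensity, where a constant in the deposited values would shrink ratios. With 16 subtracted from every intensity before log2, the log2 fold changes were 0.43 for Muc20, 0.60 for Muc5ac, 0.50 for Muc4 and 0.18 for Agr2, and none of the 10 genes was called in limma.

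Muc1, a membrane mucin of alveolar type 2 and airway cells, had intensities of 390.0, 405.8 and 458.0 in wild type and 359.2, 433.1 and 449.3 in Scnn1b-Tg. The ranges covered each other, and the log2 fold change of Muc1 was -0.02 ± 0.10 (SE), with a 95% interval of the fold change from 0.84 to 1.16. Muc16, a very large membrane mucin also made by mesothelium, lay between 25.2 and 26.5 on all 6 arrays, with the highest value on wild type replicate 2. Its log2 fold change was 0.0098 ± 0.043 (SE), and its probe set is annotated with 1 accession, that of a single cDNA clone. Mesothelial markers had 8 of 14 members above 0 and a median log2 fold change of 0.03, with Lrrn4 at 0.25 ± 0.09 and Msln, the mesothelin gene, at 0.20 ± 0.11.

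**Figure D2:**
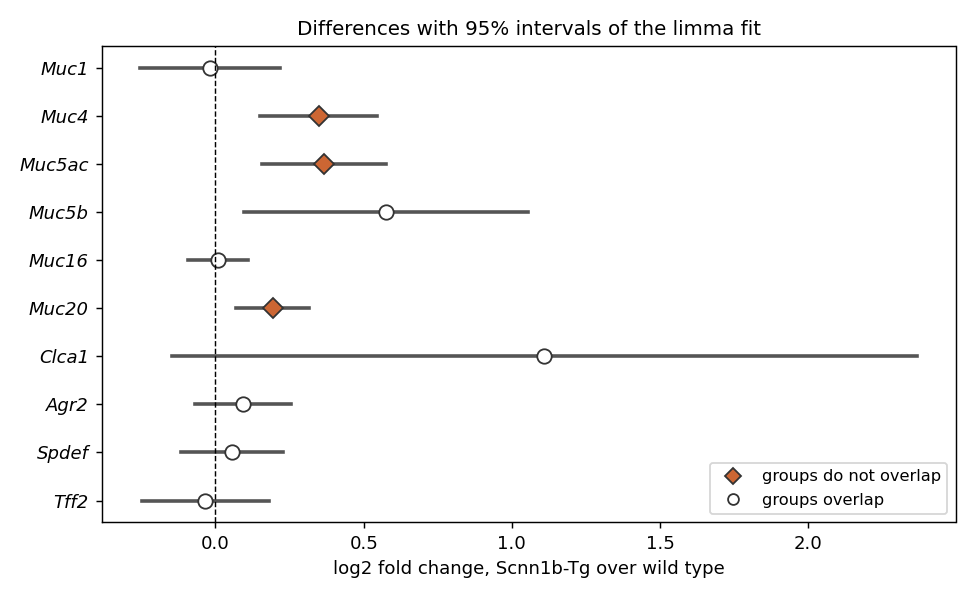
Log2 fold change of each gene (Scnn1b-Tg over wild type, points) with its 95% interval from the limma fit (lines), with orange diamonds where the groups did not overlap. The intervals of Muc4, Muc5ac, Muc5b and Muc20 lie above 0 before adjustment for the number of genes, and that of Clca1 is the widest, from -0.15 to 2.37.

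Spdef, the transcription factor of goblet cell differentiation, had intensities of 49.5, 54.6 and 54.1 in wild type and 60.2, 52.8 and 51.6 in Scnn1b-Tg. Scnn1b-Tg replicate 1 was the highest, and the other transgenic arrays lay between the wild-type arrays. The log2 fold change of Spdef was 0.06 ± 0.07 (SE), with a 95% interval of the fold change from 0.92 to 1.17 and an adjusted p of 0.980 (limma). It was -0.01 without Scnn1b-Tg replicate 1.

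Agr2, the mucin-processing isomerase, had intensities of 31.4, 31.1 and 35.6 in wild type and 36.8, 33.8 and 33.9 in Scnn1b-Tg. Wild type replicate 3 lay among the transgenic arrays, and the log2 fold change was 0.09 ± 0.07 (SE), with a 95% interval of the fold change from 0.95 to 1.19 and an adjusted p of 0.929 (limma). Tff2, a trefoil peptide secreted with mucus, had intensities of 115.6, 97.9 and 114.1 in wild type and 103.9, 98.5 and 117.6 in Scnn1b-Tg. The ranges of Tff2 covered each other, its log2 fold change was -0.03 ± 0.09 (SE), and the 95% interval of the fold change ran from 0.84 to 1.13. For Spdef, Agr2 and Tff2, rises of the size of the mean of Muc5b (1.49-fold) lay outside these intervals, which do not show that the genes are equal between genotypes. Agr2 is among the dimmest genes, where a constant would shrink ratios, and its log2 fold change was 0.18 ± 0.12 (SE) with 16 subtracted.

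Over the 10 genes together, 8 had a log2 fold change above 0 and the median was 0.14, while over all genes tested 53.2% were above 0 with a median of 0.0052. After median centring of the arrays 7 of the 10 were above 0, since Muc16 turned to -0.015, and without Scnn1b-Tg replicate 2 there were 9. The lowest of the 6 arrays was wild type replicate 2 for 7 of the 10 genes (Muc4, Muc5ac, Muc5b, Muc20, Clca1, Agr2 and Tff2), and for 22.5% of all genes. The highest was Scnn1b-Tg replicate 1 for 4 genes (Muc5ac, Muc20, Agr2 and Spdef) and Scnn1b-Tg replicate 2 for 3 (Muc4, Muc5b and Clca1), against 13.8% and 14.8% of all genes. Averaged over the 10 genes, the deviation from the mean of the 6 arrays was -0.0090, -0.34 and -0.06 for the wild-type replicates 1 to 3. It was 0.11, 0.20 and 0.10 for the Scnn1b-Tg replicates 1 to 3, so the transgenic arrays had the 3 highest means, and wild type replicate 2 was the farthest from 0. Clca1 weighs heavily in these means. It deviated from the mean of the other 5 arrays by -2.11 on wild type replicate 2 and by 0.70 on wild type replicate 1. The next largest deviation on wild type replicate 2 was that of Muc5b, at -0.74.

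By position, the mucins with higher means form 2 neighbouring pairs in the gene order of the RefSeq table (GRCm38.p6), an ordering looked up after the values were seen. Muc5ac and Muc5b lie side by side on chromosome 7 next to Muc2 and Muc6, secreted mucins of intestine and stomach, whose log2 fold changes were 0.04 ± 0.05 (SE) and 0.04 ± 0.06. The measured genes beyond this cluster were Tollip at 0.09 ± 0.07, Brsk2 at -0.08 ± 0.04, Mob2 at -0.02 ± 0.06 and Ap2a2 at 0.03 ± 0.08. Muc4 and Muc20 lie side by side on chromosome 16, on opposite strands with starts 61549 bases apart and pointing towards each other. Their measured neighbours were Tnk2 at 0.06 ± 0.08, Tfrc, the transferrin receptor gene, at -0.05 ± 0.09, Zdhhc19 at 0.0089 ± 0.04, Rubcn at 0.05 ± 0.06 and Fyttd1 at -0.08 ± 0.08. In both places the mucins of the 10 genes had larger values than the genes on either side. Muc2, Muc6, Brsk2 and Zdhhc19 were, like Muc20, among the 6645 dimmest genes. The difference between mucins and neighbours was not tested.

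**Figure D3:**
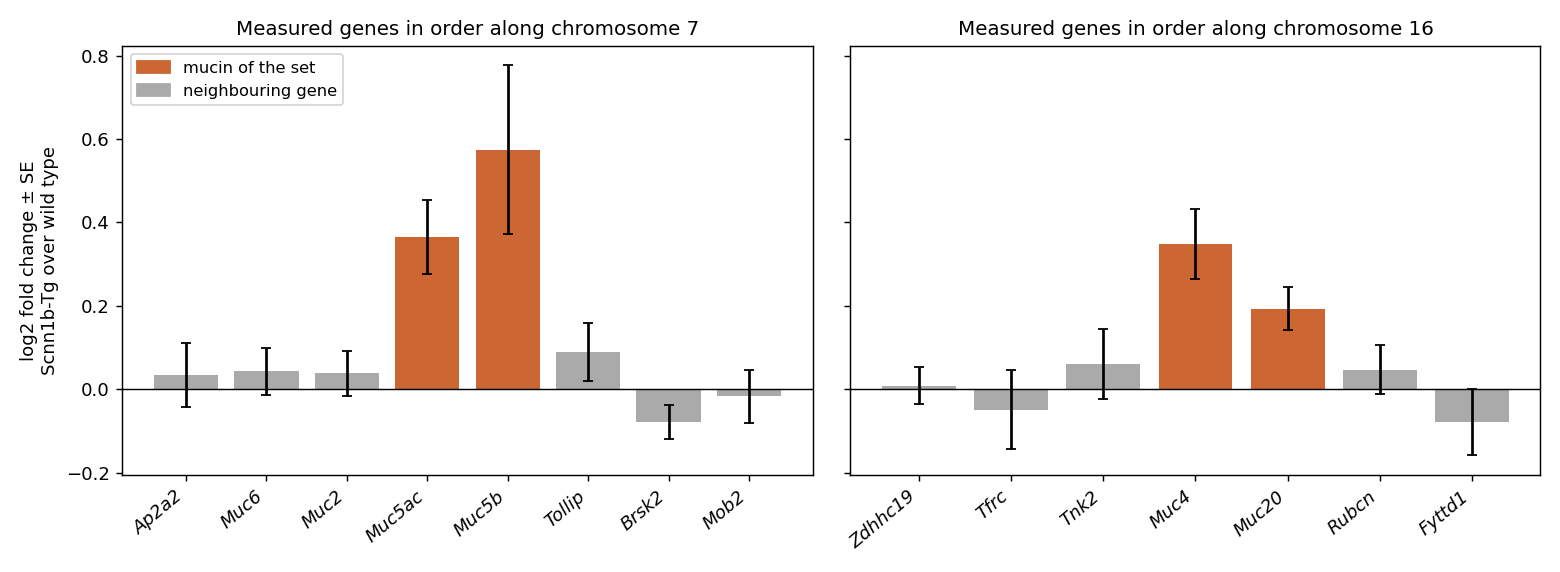
Log2 fold change ± SE (Scnn1b-Tg over wild type) of measured genes in their order along chromosomes 7 and 16, with the mucins described here in orange and neighbouring genes in grey. Muc5ac (0.37), Muc5b (0.57), Muc4 (0.35) and Muc20 (0.19) stand above neighbours that lie between -0.08 and 0.09.

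Clca1, Tff2 and Agr2 also have relatives beside them on their chromosomes. Clca1 sits among Clca4a (0.04 ± 0.04, SE), Clca4b (-0.06 ± 0.04), Clca3b (0.07 ± 0.05) and Clca2 (-0.03 ± 0.05). These relatives were all among the 6645 dimmest genes, with wild-type means from 22.8 (Clca4b) to 28.0 (Clca3b), against 515.4 for Clca1. So near the lowest values of the arrays, their small differences cannot be compared with the spread of Clca1. Tff2 lies between the other trefoil genes, Tff1 at 0.14 ± 0.05, with intensities of 37.3 to 39.3 in wild type and 41.2 to 43.7 in Scnn1b-Tg, and Tff3 at 0.07 ± 0.09. Tff1 thus had separate groups where Tff2 did not, although its adjusted p was 0.713 (limma). Agr3, the neighbour and relative of Agr2 and like it among the dimmest genes, gave 0.03 ± 0.05. Ahr, a ligand-activated transcription factor gene 2 places away, gave 0.17 ± 0.07.

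For the rest of the mucus pathway, limma called 0 members of each of 6 lists, and counts at an unadjusted p under 0.05 are given beside them. Over all genes, 3.96% were higher and 2.05% lower at that p. Of the other mucins and mucin-like genes 11 of 15 were measured, with 5 above 0, 6 below, a median of -0.0093 and 0 at an unadjusted p under 0.05. Of these 11, 7 were among the 6645 dimmest genes, so a median near 0 does not show that they are unchanged. The largest values of this list were Podxl, a sialomucin of vessels, at 0.14 ± 0.09 (SE), Cd164 at -0.07 ± 0.09 and Spn (CD43) at -0.06 ± 0.06. Cd164 turned to 0.03 without Scnn1b-Tg replicate 3. Of 18 measured goblet cell secretory proteins 13 were above 0, with a median of 0.06, and 4 reached an unadjusted p under 0.05, all higher. Of these 18, 10 were among the dimmest genes. Pigr, the receptor that carries IgA and IgM to the airway surface, had intensities of 58.3, 58.6 and 54.1 in wild type and 70.7, 104.8 and 91.8 in Scnn1b-Tg. The groups of Pigr were separate, and its log2 fold change was 0.63 ± 0.13 with an adjusted p of 0.376 (limma). Ltf, the lactoferrin gene, gave 0.28 ± 0.10, and Bpifb1, a lipid-binding protein of airway secretions, 0.23 ± 0.10.

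Enzymes that build the sugar chains of mucins lay about evenly on both sides of 0. Of 30 measured 18 were above 0, the median was 0.02, and 1 in each direction reached an unadjusted p under 0.05. Gcnt1, which makes the core 2 branch, gave 0.31 ± 0.10 (SE), with intensities of 37.2 to 42.0 in wild type and 44.4 to 56.3 in Scnn1b-Tg. Galnt2, which adds the first sugar to serine and threonine, gave 0.16 ± 0.07 and B4galt4, a galactosyltransferase, -0.17 ± 0.08. Genes of mucin folding and granule exocytosis gave 13 above 0 and 13 below of 26, with a median of 0.0011 and 1 in each direction at an unadjusted p under 0.05. Unc13d, a priming factor of granule release, gave 0.20 ± 0.07, Pdia4, a disulphide isomerase, 0.15 ± 0.07 and Best2, a bicarbonate channel of goblet cells in the colon, -0.19 ± 0.07.

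Regulators of goblet cell fate and of mucin genes had 23 of 32 members above 0 and a median of 0.05, with 4 higher and 1 lower at an unadjusted p under 0.05. Serpinb2, an inhibitor of plasminogen activators induced in airway epithelium by interleukin 13, had intensities of 25.8, 24.8 and 26.7 in wild type and 39.5, 33.1 and 35.0 in Scnn1b-Tg. Its groups were well apart, with a log2 fold change of 0.47 ± 0.07 (SE) and an adjusted p of 0.168 (limma). Serpinb2 was called under 2 of 15 alternatives, namely with 16 subtracted before log2 and with robust variance along an intensity trend. Klf4, a transcription factor of goblet cell differentiation in the gut, gave 0.30 ± 0.14 and Erbb2, the receptor that partners Muc4, 0.26 ± 0.10. Without Scnn1b-Tg replicate 3 Klf4 was 0.17, and without wild type replicate 2 Erbb2 was 0.16.

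The list of signals that act on goblet cells had 14 of 21 members above 0 and a median of 0.05, with 4 higher and 0 lower at an unadjusted p under 0.05. Besides cytokines and receptors (type 2, interleukins 1 and 17 among them), it holds Retnla, Retnlb and Postn, which are neither. Of its 21 members 10 were among the 6645 dimmest genes. Il4 gave 0.06 ± 0.06 (SE), Il5 0.05 ± 0.05 and Il13 0.09 ± 0.08, all with overlapping groups, and Il9 0.10 ± 0.05 with separate groups. Retnla, a resistin-like secreted protein induced by type 2 cytokines, had by far the largest value of the list, with intensities of 1524, 542.2 and 929.8 in wild type and 3024, 2651 and 2341 in Scnn1b-Tg. Its groups were separate, and limma gave a log2 fold change of 1.54 ± 0.34 (SE) at an adjusted p of 0.387. Il17ra, the interleukin 17 receptor chain, gave 0.30 ± 0.10 and Il1b, a cytokine of activated macrophages, 0.20 ± 0.08.

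Genes whose pattern was most like that of the 3 most variable of the 10 were found over the 6 arrays as those with the smallest root mean square difference between log2 profiles, each centred on its own mean. For Clca1 they were Retnla, at a difference of 0.36 log2 units, Slc26a4, the anion exchanger pendrin, at 0.47, and Retnlg, a resistin-like gene of neutrophils, at 0.51. These 3 genes shared with Clca1 their lowest value on wild type replicate 2, except that Slc26a4 was nearly as low on wild type replicate 3 (25.9 and 29.5), and unlike Clca1 they had separate groups. Because they were picked for likeness over these same arrays, the shared low follows largely from the choice. For Muc5b they were Nfil3 (0.16), the chemokine gene Ccl3 (0.17) and Thbs1, the thrombospondin 1 gene (0.18), of which only Ccl3 had separate groups. For Muc5ac they were Basp1 (0.057), the glucose transporter gene Slc2a1 (0.059) and Mms22l (0.059), all with separate groups.

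**Figure D4:**
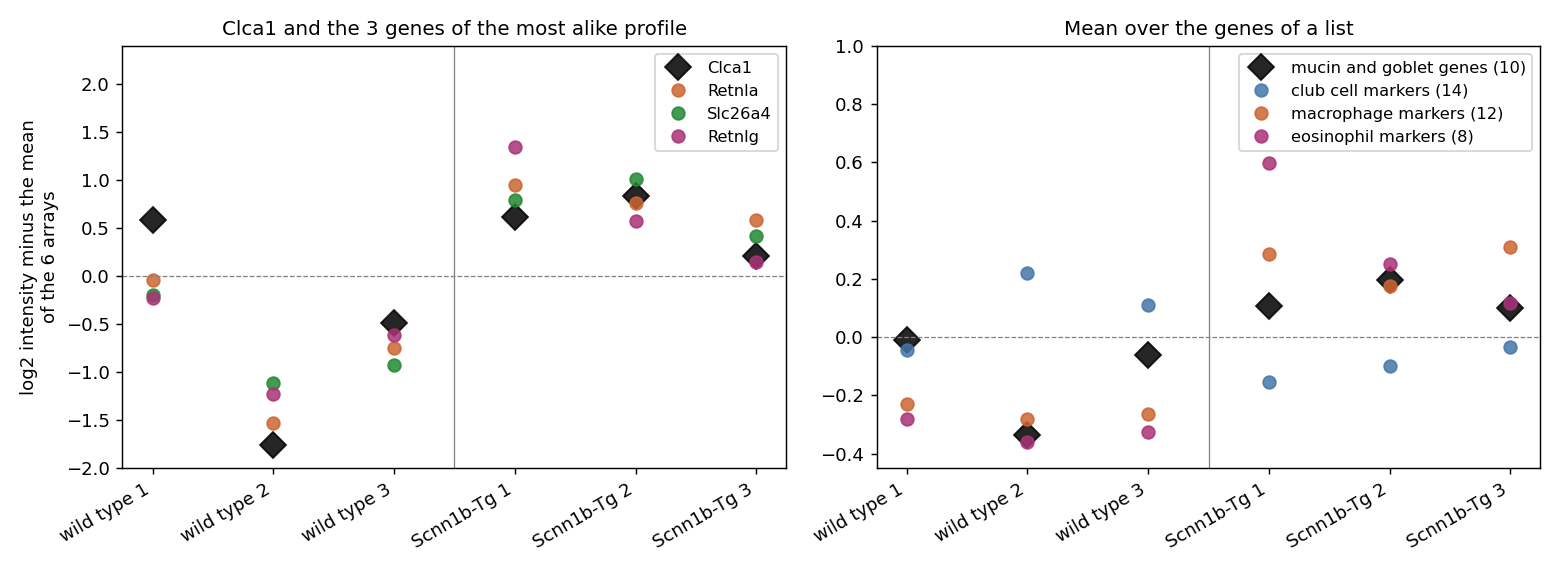
Log2 intensity minus the mean of the 6 arrays, by array, for Clca1 and the 3 genes of the most alike profile (left) and as a mean over the genes of 4 lists (right). Clca1 and its nearest genes, picked for likeness over these arrays, are lowest on wild type replicate 2. On that array the club cell markers are at their highest (0.22) while the mucin and goblet genes are at their lowest (-0.34). Clca1 weighs heavily in the latter mean.

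Markers of other cells moved beside these differences. Of 12 macrophage markers 12 were above 0 (11 of 12 in 7 of the 16 alternatives), beside 53.2% of all genes. For 9 of the 12 all transgenic arrays were above all wild-type arrays, as for 6.26% of all genes. The summed intensity of the list was 1787 to 2182 in wild type and 3397 to 4070 in Scnn1b-Tg. Chil3, a chitinase-like protein of macrophages, alone made up 739.8 to 1144 and 1945 to 2748 of these sums. In mean log2 deviation from the mean of the 6 arrays, the list was at -0.281 to -0.229 in wild type and 0.176 to 0.311 in Scnn1b-Tg. Chil3 gave 1.34 ± 0.19 (SE) and Itgam, an integrin chain of myeloid cells, 0.91 ± 0.15. Of 8 measured eosinophil markers 7 were above 0 and 5 had separate groups, all higher, again beside 6.26% of all genes. Their sums were 325 to 355 in wild type and 600 to 1037 in Scnn1b-Tg. Alox15 alone made up 48.4 to 76.7 and 273.8 to 522.6 of these sums. In mean log2 deviation, the eosinophil list was at -0.361 to -0.282 in wild type and 0.118 to 0.599 in Scnn1b-Tg. The largest values were those of Alox15 at 2.46 ± 0.27 (SE), Ccr3 at 1.40 ± 0.32 and Prg2, the gene of an eosinophil granule protein, at 0.41 ± 0.17. Prg2 had intensities of 40.5 to 45.7 in wild type and 48.6 to 78.2 in Scnn1b-Tg. The separate genes also included Siglecf, which is in the macrophage list too and so counts in both, at 0.39 ± 0.09, and the interleukin 5 receptor gene Il5ra at 0.22 ± 0.06. Epx, a granule peroxidase gene of eosinophils, was among the dimmest genes, at 25.0 to 26.4 in wild type and 25.4 to 28.0 in Scnn1b-Tg, with overlapping groups. Of 14 club cell markers 12 were below 0 and 2 above, while 53.2% of all genes were above 0, and the median was -0.17. The club cell sums were 11889 to 14238 in wild type and 10522 to 11280 in Scnn1b-Tg. For 5 of the 14 all transgenic arrays were below all wild-type arrays, as for 4.41% of all genes. For 1 all were above, as for 6.26%. Reg3g, a secreted lectin, went the other way at 0.75 ± 0.19, while Pon1 gave -0.68 ± 0.22 and Gsta3 -0.65 ± 0.20. Without wild type replicate 2, Reg3g was 0.59, Pon1 -0.45 and Gsta3 -0.41. Scgb1a1 at -0.31 ± 0.07 and Cyp2f2 at -0.48 ± 0.08 were also among those with separate groups. On wild type replicate 2, where Clca1 was lowest, the club cell sum was the highest of the 6. The sums of the alveolar type 2 markers (26938) and of the folding and exocytosis genes (7906) were also highest there. The sum of the goblet cell secretory proteins was highest there too (4835), but Lyz2 alone made up 4030 of it. In mean log2 deviation from the mean of the 6 arrays, that list was at -0.016 on this array and the folding and exocytosis list at -0.003. The part of these markers in the differences of the mucin and goblet cell genes was not tested.

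Markers of the other epithelial and lung cells were closer to 0. Ciliated cell markers had 7 of 14 above 0 and a median of 0.0044, basal cell markers 8 of 10 and 0.05, alveolar type 2 markers 8 of 12 and 0.0073, and alveolar type 1 markers 1 of 10 and -0.05. Their summed intensities overlapped between genotypes, at 887 to 1033 and 890 to 1015 for the ciliated list and at 23482 to 26938 and 23991 to 25391 for the alveolar type 2 list. Neutrophil markers had 7 of 12 above 0, a median of 0.03 and sums of 548 to 686 in wild type and 791 to 1041 in Scnn1b-Tg. Most of the difference in sums was that of Retnlg (1.38 ± 0.35, SE), at 94.4 to 189.3 in wild type and 245.2 to 561.6 in Scnn1b-Tg. Of the 12 markers, 2 had all transgenic arrays above wild type and 1 had all below, beside 6.26% and 4.41% of all genes. Stomach and oesophagus markers, listed because Tff2 and some mucins are made there, had 10 of 15 above 0 and a median of 0.04, with sums of 450 to 464 in wild type and 467 to 475 in Scnn1b-Tg; 12 of these 15 lay among the 6645 dimmest genes. Under the settings used throughout, limma called 0 members of any marker list. Chil3 was called in 4 of 16 alternatives (without the dimmest genes, with robust variance along an intensity trend, with 16 subtracted and with the replicate block), Itgam in the first 3 of these, and Alox15 without the dimmest genes and with 16 subtracted. In those 4 alternatives, in the same order, the macrophage list had 3, 3, 2 and 1 calls and the eosinophil list 1, 0, 1 and 0.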

How the data were processed

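Lung RNA of 3 wild-type and 3 Scnn1b-Tg samples was extracted with Trizol and labelled by Affymetrix's whole-transcript sense method, per the labels' protocols. The deposited values are probe set intensities. The submitters' processing notes name RMA, without a version or settings, and the linear scale was read from the values. Of 28815 probe sets, 21780 had exactly 1 symbol in the platform annotation. Where a gene had several (998 genes), its brightest over the 6 arrays stood for it, giving 19935 genes. The genome build of the annotation is unstated, so gene coordinates are not printed, and those of promoters are RefSeq's.

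The test was limma 3.58.1 under R 4.3.3 on log2 intensities, with lmFit and eBayes and only genotype in the model (6.99 degrees of freedom after moderation). Its p-values were two-sided and were adjusted over all genes by Benjamini-Hochberg, with a call at an adjusted p under 0.05, and the fit was tested on simulated data. Fold changes are 2 to the log2 fold change. An SE is that of the fit, and an SD is over the 3 arrays of a genotype. The 10 genes and 16 lists (280 entries, 259 measured) were chosen with earlier results of these data known. Named are the 10 genes, up to 3 members of each list (called, or else of largest absolute log2 fold change), Scnn1b and the nearest profiles. Genes named by position, relatives of a member, and Sftpc, Scgb1a1, Cyp2f2, Epx, Siglecf, Il5ra, Il4, Il5, Il9, Il13, Retnlb, Postn and Lyz2 fall outside this rule and were chosen after their values were seen. The alternatives tried were quantile or median scaling of the arrays, omission of the 6645 dimmest genes, averaged or separate probe sets, robust variance along an intensity trend, weights per array, 16 subtracted before log2, a replicate block, and arrays left out singly or as the pair that stands apart.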

Additional observations from a re-analysis of the deposited data

How the results depend on the processing

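In limma 0 of the 10 genes were called in all 16 alternatives run, among them the replicate block, in which Muc5ac had an adjusted p of 0.538, Muc4 0.696 and Clca1 0.804. The lowest adjusted p of any alternative was 0.216 for Muc5ac, 0.237 for Muc4, 0.278 for Muc20, 0.359 for Clca1 and 0.444 for Muc5b. The log2 fold changes of Muc4 (0.27 to 0.50), Muc5ac (0.28 to 0.60), Muc5b (0.40 to 0.73), Muc20 (0.16 to 0.43), Clca1 (0.51 to 1.68) and Agr2 (0.05 to 0.18) stayed above 0 in every alternative run. The others changed sign. With single arrays left out, Muc1 ran from -0.080 to 0.081, Tff2 from -0.11 to 0.021, Spdef from -0.013 to 0.098 and Muc16 from -0.0034 to 0.033, and Muc16 was -0.015 after median centring. The cause was not tested. Over all genes, 1 was called, 39 without the 6645 dimmest genes (fewer genes tested), 36 with an intensity trend and robust variance, 23 with 16 subtracted, 3 with the replicate block, 6 without wild type replicate 2 and Scnn1b-Tg replicate 3 together, and 0 to 5 with single arrays left out. The labels do not say whether arrays of equal replicate number form a pair. Deviations from the group means correlated over genes at 0.03, 0.03 and 0.04 for equal numbers. These correlations are small, although every array correlated best with its own number. Muc16, Muc20 and Agr2 are dim, and the alternative without the dimmest genes gives no value for them.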
